A study of Homo sapiens with 12 samples.

Results

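hnRNP and SR proteins are RNA-binding proteins that coat new transcripts. Genes of these, of RGG proteins and of other RNA-binding proteins, 53 in all, were followed here in JJN3 cells, a human multiple myeloma line. The 53 genes were taken by symbol as a fixed list, which was chosen with earlier results of these data known. Shares of the members set beside those of all genes are therefore a description. All 53 were found among the 59276 gene symbols of the deposited table, and all 53 passed the filter on low values in every comparison. They were sorted into 11 roles. Of these, 4 were hnRNP subfamilies (A/B and D, F/H, C to Q, and U with SAFB), and the others were SR proteins, their TRA2 relatives, FET, cold-inducible, U2AF and Sm core proteins, and other RGG and RNA-binding proteins.

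RNA from 12 samples was sequenced in 4 groups of 3 replicates. JJN3 cells were kept for 3 days with the solvent DMSO or with 10 µM MS023, an inhibitor of the type I protein arginine methyltransferases (PRMTs). The study's methods do not say whether these cells carried Cas9. The other groups, isgCtrl and iPRMT1 (PRMT1-KO below), were JJN3 cells with a stable Cas9 transgene and a lentiviral guide, a control guide in isgCtrl and the guide iPRMT1_1 against PRMT1 in PRMT1-KO. Guide expression was switched on with doxycycline for 3 days in both. By the study's methods these lines were sorted for mCherry and selected with puromycin, and 1 guide stands for the knockout. The study's methods speak of independent experiments in general, but neither they nor the labels say that these replicates were separate cultures, so p-values measure the spread between these samples, which may be technical.

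hnRNP proteins pack nascent RNA and mostly repress splice sites, whereas SR proteins bind exonic enhancers through an RNA recognition motif and recruit the spliceosome through an arginine-serine domain. Many of these proteins carry arginine-glycine repeats (RGG boxes), the preferred site of the asymmetric dimethylation that PRMT1 deposits. SR and hnRNP genes are also known to control their own transcripts by splicing in exons that lead to nonsense-mediated decay (NMD).

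Values are log2(TPM+1) as deposited, where TPM is the transcript level per length, scaled so that all genes of a sample sum to a fixed total. Read depth per sample is therefore unknown beyond the minimum that the study's methods state. A fall of an mRNA per cell cannot be told apart from a rise of other mRNAs, nor fewer cells of a type from less RNA per cell. Between 20988 and 22241 symbols were above 0 in a sample, and replicates of a group correlated at r = 0.987 to 0.992 over 13256 genes. PRMT1 mRNA went from 860 ± 9.15 TPM in isgCtrl to 304 ± 4.34 TPM after knockout (SD over 3 replicates), a log2 fold change of -1.50 (SE 0.045, limma adjusted p = 7.2e-04), so the targeted gene was lower in the samples labelled as knockout. The plasma cell markers SDC1 and TNFRSF17 lay between 6.45 and 7.48 log2(TPM+1) in all 12 samples, while MS4A1 and PAX5, markers of B cells, were at 0.38 or lower. MZB1 and SLAMF7, which mark plasma cells too, were at 1.77 or lower in all isgCtrl and PRMT1-KO samples. MZB1 was at 6.70 to 6.75 in DMSO and at 7.46 to 7.51 with MS023, and SLAMF7 at 3.28 to 3.46 and at 5.62 to 5.80, so both were higher with MS023 without overlap.

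The first comparison asked what MS023 did to these genes. MS023 lowered most of them by a moderate amount: 47 of 53 had a log2 fold change under 0, with a median of -0.34, beside -0.11 over all 12903 genes tested. DEGs are genes whose adjusted p in limma is under 0.05 and whose log2 fold change is beyond 0.48 in either direction. The study set these thresholds. Over all genes tested, the fit used here called 2486 lower and 1500 higher DEGs with MS023. The study reported far fewer DEGs with MS023 and a similar number in PRMT1-KO. The cause of that gap was not tested, so the DEGs with MS023 below are not the study's own list. Of the 53, 15 were DEGs with lower values, or 28.3%, where 19.3% of all genes tested were. Only RBM3 was a DEG with higher values, where 11.6% of all genes were. Without the fold change threshold 36 members were lower (67.9%, beside 30.4% of all genes) and 2 were higher, RBM3 and HNRNPH2 (beside 18.4%).

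The share of members without overlap between the groups was of the same kind. All 3 MS023 samples lay below all 3 DMSO samples for 40 members, or 75.5%, where 36.3% of all genes did, and above them for 3 members, where 23.2% of all genes did. With 3 samples against 3, a 2-sided exact permutation test of a single gene cannot give a p below 0.1. TRA2B, with a log2 fold change of -0.485, lay just inside the fold change threshold, and SRSF3, with -0.4796, just outside it.

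Scaling bears on these counts, since the median of all genes was itself below 0. Median-ratio scaling, which puts the typical gene at no change, moved that median by 0.090. The median of the members became -0.24, with 8 DEGs that were lower (15.1%, where 15.2% of all genes were) and 1 that was higher (where 14.8% of all genes were). Among all DEGs the share that was lower went from 62.4% to 50.7% under this scaling. The 8 were SRSF10, HNRNPA3, SRSF1, HNRNPA2B1, SRSF7, SRSF6, SERBP1 and SRSF11, with log2 fold changes of -0.82 to -0.51.

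**Figure D1:**
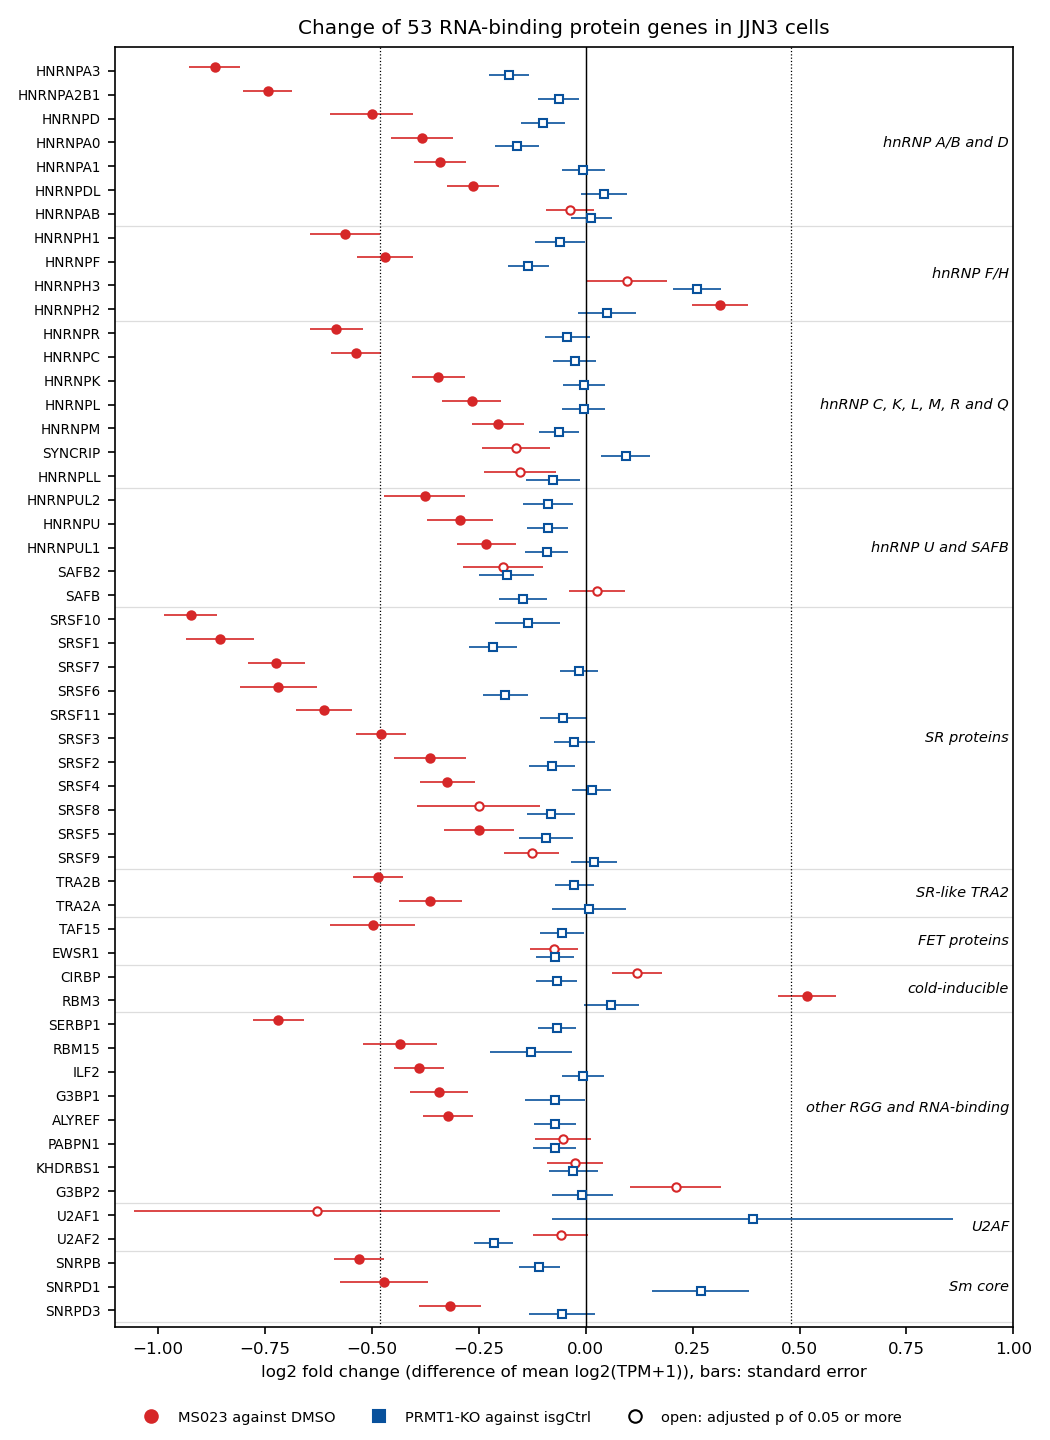
Log2 fold changes (x axis, differences of mean log2(TPM+1), bars are standard errors) of the 53 genes in rows by role, for MS023 against DMSO (circles) and PRMT1-KO against isgCtrl (squares); filled symbols have an adjusted p under 0.05 in limma and dotted lines mark 0.48. Filled circles sit left of 0 for 36 genes and right of it for RBM3 and HNRNPH2, and every square is open.

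All 11 SR protein genes had log2 fold changes under 0 with MS023, 9 passed the adjusted threshold of 0.05 and 5 were DEGs, at a median log2 fold change of -0.48. SRSF10, a splicing repressor when dephosphorylated, was at 6.93, 6.99 and 6.87 log2(TPM+1) in DMSO and at 5.99, 6.02 and 6.01 with MS023. That is a fall without overlap from 121 ± 5.08 to 63.4 ± 0.592 TPM (SD, n = 3), the largest of the 53 at a log2 fold change of -0.92 (SE 0.062, limma adjusted p = 1.8e-04). SRSF1, the founding SR protein and a known oncoprotein, had 8.73, 8.58 and 8.81 in DMSO and 7.82, 7.85 and 7.88 with MS023. Its DMSO samples were the wider group, and the lowest of them was still far above every MS023 sample (log2 fold change -0.86, SE 0.080, limma adjusted p = 5.2e-04).

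SRSF7, which also serves mRNA export and polyadenylation, was at 8.24, 8.18 and 8.26 in DMSO and at 7.53, 7.55 and 7.43 with MS023. SRSF6, an exon enhancer factor, was at 6.80, 6.62 and 6.90 in DMSO and at 6.04, 6.01 and 6.11 with MS023. Both groups stood apart for both genes, at log2 fold changes of -0.72 each (SE 0.066 and 0.090, limma adjusted p = 5.0e-04 and 0.0014). SRSF11, an SR-related factor, went from 7.25, 7.27 and 7.20 to 6.60, 6.57 and 6.71, again without overlap. SRSF3, the smallest SR protein, had an adjusted p of 0.0013 with a log2 fold change of -0.4796.

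The remaining SR genes fell less or did not pass. SRSF2, SRSF4 and SRSF5 had log2 fold changes of -0.36, -0.32 and -0.25, with adjusted p of 0.014, 0.0081 and 0.048 in limma. SRSF5 lost the call in 10 of 15 alternative fits, among them median-ratio scaling (adjusted p = 0.25) and those without MS023 replicates 1 or 3 or any DMSO replicate (0.059 to 0.14). SRSF9 (-0.13) and SRSF8 (-0.25, with 4.40, 3.97 and 3.89 in MS023 and 4.27 to 4.41 in DMSO) did not pass. Without MS023 replicate 1, SRSF8 passed at -0.41 (adjusted p = 0.018). TRA2B and TRA2A, SR-like activators of exons, had log2 fold changes of -0.49 and -0.36 (SE 0.058 and 0.075, limma adjusted p = 0.0012 and 0.0091). TRA2B was at 8.58, 8.53 and 8.56 in DMSO and at 8.08, 8.10 and 8.04 with MS023, so the groups were separate.

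**Figure D2:**
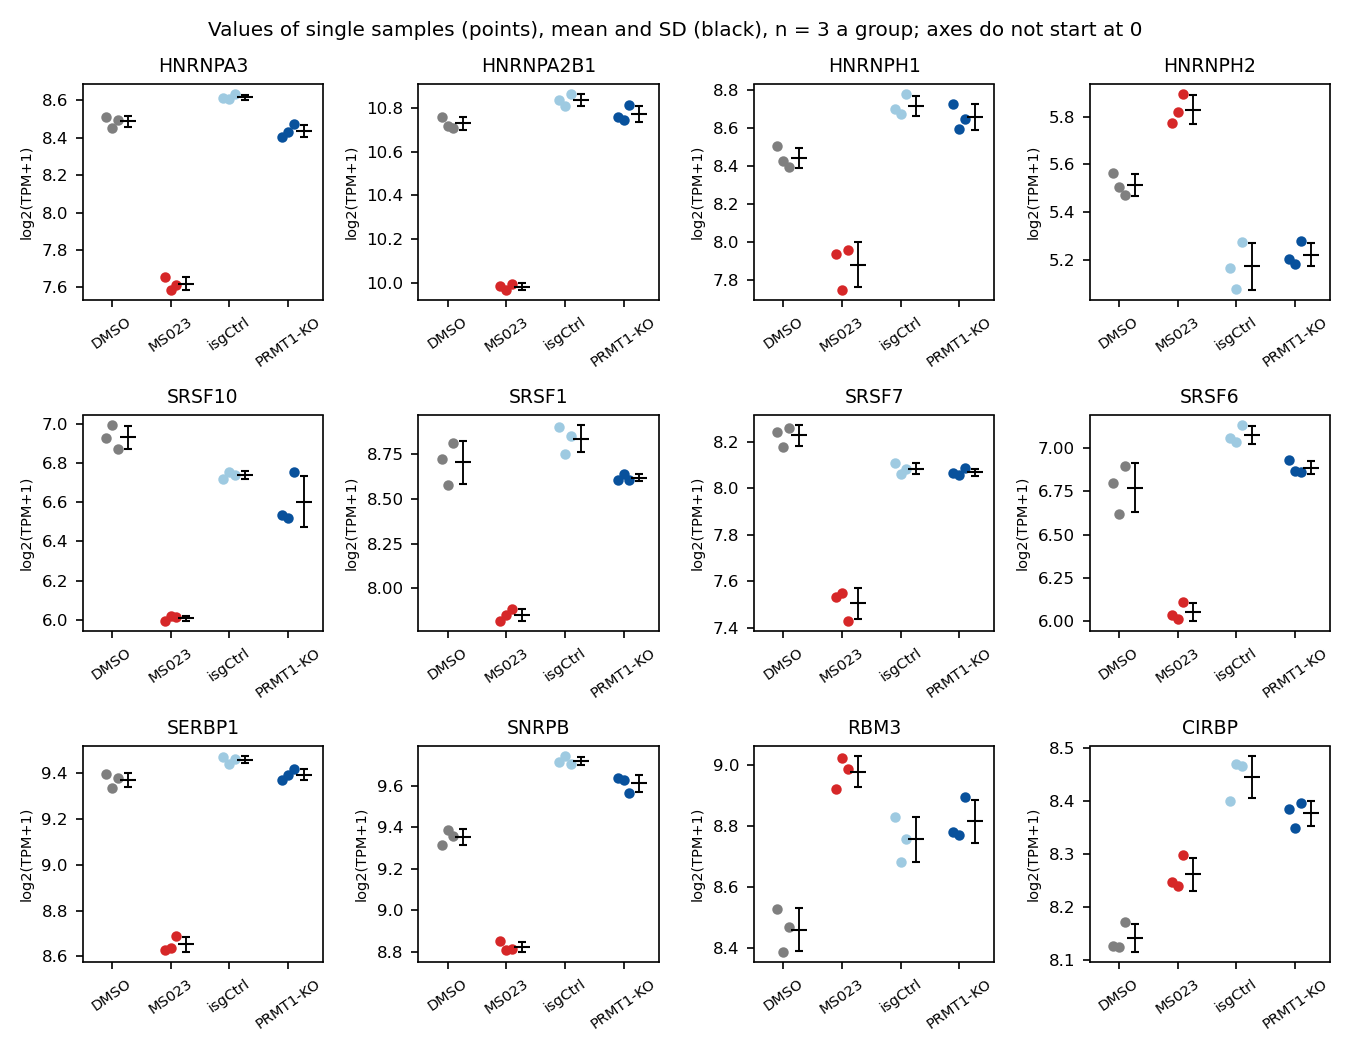
log2(TPM+1) (y axes, which do not start at 0) of 12 genes in single samples (points) of DMSO, MS023, isgCtrl and PRMT1-KO, with mean and SD in black (n = 3). The MS023 points lie below all others for HNRNPA3, HNRNPA2B1, HNRNPH1, SRSF10, SRSF1, SRSF7, SRSF6, SERBP1 and SNRPB, and above all others for HNRNPH2 and RBM3.

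Bases just upstream of the annotated gene start are shown for 3 genes that fell, SRSF7, SRSF6 and SERBP1, and for RBM3, which rose. They were read from RefSeq on GRCh38.p14 and stand on the gene's own strand, 5′ to 3′: chr2:38751495-38751644 (minus) for SRSF7, chr20:43457746-43457892 (plus) for SRSF6, chr1:67430416-67430552 (minus) for SERBP1 and chrX:48574334-48574448 (plus) for RBM3. Capitals mark the motifs searched on both strands. Here these are the GC box GGGCGG, which appears as CCGCCC when it lies on the other strand. They are also the CCAAT box, which then appears as ATTGG, and the ETS core CCGGAAG.
SRSF7: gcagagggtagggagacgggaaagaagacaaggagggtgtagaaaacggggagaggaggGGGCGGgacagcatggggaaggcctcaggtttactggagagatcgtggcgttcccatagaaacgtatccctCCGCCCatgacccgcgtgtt
SRSF6: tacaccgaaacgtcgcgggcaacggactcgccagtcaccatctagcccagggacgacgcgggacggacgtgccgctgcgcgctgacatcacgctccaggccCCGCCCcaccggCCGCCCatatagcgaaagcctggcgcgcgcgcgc
SERBP1: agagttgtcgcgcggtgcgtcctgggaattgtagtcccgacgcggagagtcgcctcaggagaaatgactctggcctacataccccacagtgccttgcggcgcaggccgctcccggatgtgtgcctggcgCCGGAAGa
RBM3: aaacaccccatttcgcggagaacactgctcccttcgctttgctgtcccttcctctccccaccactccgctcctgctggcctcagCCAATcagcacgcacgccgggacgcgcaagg
SRSF7 and SRSF6 held 2 GC boxes each, SERBP1 an ETS core next to its start, and RBM3 a CCAAT box. A match is a description of letters and says nothing of a factor bound there.

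hnRNP A/B and D proteins, abundant packaging factors that often oppose SR proteins, were lower too: all 7 were under 0, 6 had an adjusted p under 0.05 and 3 were DEGs. HNRNPA3 was at 8.51, 8.45 and 8.50 in DMSO and at 7.66, 7.59 and 7.61 with MS023, a log2 fold change of -0.87 (SE 0.059, limma adjusted p = 1.9e-04). HNRNPA2B1, a reader of splice and export elements, was at 10.76, 10.72 and 10.71 in DMSO and at 9.99, 9.97 and 10.00 with MS023. In TPM it went from 1696 ± 32.9 to 1012 ± 10.3 (SD, n = 3), a log2 fold change of -0.74 (SE 0.057, limma adjusted p = 2.7e-04). Neither gene had overlapping groups.

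HNRNPD (AUF1), which binds AU-rich decay elements, was at 8.43, 8.42 and 8.48 in DMSO and at 8.02, 7.75 and 8.06 with MS023. Its second MS023 replicate was the lowest by a margin, and its log2 fold change of -0.50 (SE 0.097, limma adjusted p = 0.0073) became -0.40 under median-ratio scaling. HNRNPA1, the best studied member of the family, fell by 0.34 on the log2 scale, from 1562 ± 49.4 to 1233 ± 28.5 TPM (SD, n = 3 each, limma adjusted p = 0.0055). HNRNPA0 and HNRNPDL fell by 0.38 and 0.26 (limma, adjusted p = 0.0067 and 0.014), while HNRNPAB did not pass at -0.04. Under median-ratio scaling HNRNPAB was at 0.07 and HNRNPDL no longer passed (adjusted p = 0.10).

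The hnRNP F/H genes, whose proteins bind G-rich tracts, moved in opposite directions. HNRNPH1 fell, from 8.50, 8.43 and 8.40 in DMSO to 7.94, 7.75 and 7.96 with MS023 (log2 fold change -0.56, SE 0.082, limma adjusted p = 0.0025). HNRNPH2, its X-linked paralog, rose from 5.57, 5.50 and 5.47 to 5.77, 5.82 and 5.89 (log2 fold change 0.31, SE 0.066, limma adjusted p = 0.0095). The groups were separate for both genes, so within every sample HNRNPH1 lost ground to HNRNPH2. HNRNPF fell by 0.47 on the log2 scale (SE 0.065, limma adjusted p = 0.0021), under the fold change threshold, and HNRNPH3 did not pass at 0.10, with 7.48, 7.39 and 7.69 in MS023 and 7.38 to 7.45 in DMSO.

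Upstream bases of this pair are shown because the paralogs moved apart, at chr5:179634785-179634934 (minus) for HNRNPH1 and chrX:101408072-101408221 (plus) for HNRNPH2 on GRCh38.p14, read from RefSeq on the gene's strand. Capitals mark a CCAAT box, a GC box and the E-box CACGTG.
HNRNPH1: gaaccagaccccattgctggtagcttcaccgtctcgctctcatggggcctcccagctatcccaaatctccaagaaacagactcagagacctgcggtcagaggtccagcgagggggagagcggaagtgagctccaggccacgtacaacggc
HNRNPH2: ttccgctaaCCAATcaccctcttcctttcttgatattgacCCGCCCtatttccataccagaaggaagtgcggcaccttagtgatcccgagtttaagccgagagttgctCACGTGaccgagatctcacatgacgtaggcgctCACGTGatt
HNRNPH2 held a CCAAT box, a GC box and 2 E-boxes in this window, and HNRNPH1 none of the motifs searched. The HNRNPH1 window lies before the outermost start of a gene with 49 annotated transcripts. Its observed over expected ratio of CG dinucleotides was 0.343, beside a median of 0.972 over the members. Whether these cells use that start was not tested, so the pair is not read as a contrast of promoters in use.

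Ratios of related genes within a sample do not depend on scaling between samples. They were looked at for 14 pairs, which were chosen after the values were seen, so they are given as a description with no test. HNRNPH1 stood at 7.77 ± 0.039 times HNRNPH2 in DMSO and at 4.21 ± 0.34 times with MS023 (TPM, SD, n = 3 each). In isgCtrl the ratio was 11.99 ± 0.44 and in PRMT1-KO 11.1 ± 0.62, with overlapping samples, which ran from 11.6 to 12.5 and from 10.6 to 11.8. HNRNPH1 over HNRNPH3 was 2.03 ± 0.056 in DMSO and 1.29 ± 0.084 with MS023, and 2.07 ± 0.036 in isgCtrl and 1.66 ± 0.096 in PRMT1-KO. This ratio was lower than in the control in both comparisons, without overlap, as was SRSF1 over SRSF9. Of the 14 pairs, 11 did not overlap between MS023 and DMSO (7 lower, 4 higher). Between PRMT1-KO and isgCtrl 6 did not (5 lower, 1 higher).

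Other pairs shifted too. SRSF1 over SRSF9, closely related SR proteins, was 2.21 ± 0.22 in DMSO and 1.32 ± 0.026 with MS023, and 2.03 ± 0.11 in isgCtrl (SD, n = 3) and 1.72 ± 0.033 in PRMT1-KO. G3BP1 over G3BP2, the paired core proteins of stress granules, was 1.97 ± 0.19 and 1.33 ± 0.11 in DMSO and MS023, and 2.16 ± 0.19 and 2.06 ± 0.071 in isgCtrl and PRMT1-KO. HNRNPA2B1 over HNRNPA1 went from 1.09 ± 0.021 to 0.821 ± 0.013, so the order of the 2 most abundant members turned with MS023. It was 1.04 ± 0.019 in isgCtrl and 0.999 ± 0.022 in PRMT1-KO, where the samples lay on both sides of 1.

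**Figure D3:**
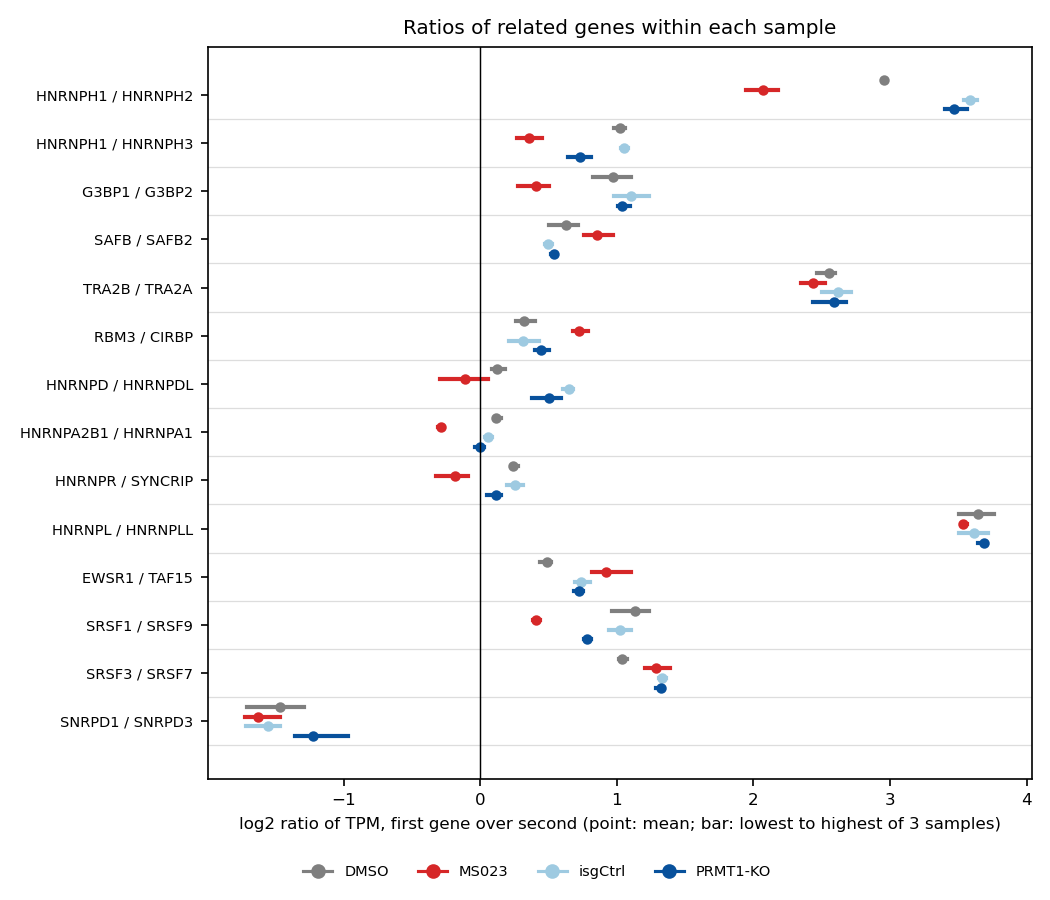
Log2 ratios of TPM of 14 pairs of related genes (rows), by group; points are means and bars run from the lowest to the highest of 3 samples. The MS023 bar lies left of the DMSO bar for HNRNPH1 over HNRNPH2 and SRSF1 over SRSF9, and right of it for RBM3 over CIRBP.

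Among the hnRNP C, K, L, M, R and Q genes all 7 were under 0 with MS023, 5 with an adjusted p under 0.05. HNRNPR, an RNA-transport factor with an RGG box, was at 7.62, 7.50 and 7.54 in DMSO and at 6.96, 6.98 and 6.96 with MS023 (log2 fold change -0.58, SE 0.062, limma adjusted p = 8.4e-04). HNRNPC, the tetramer that measures transcript length and shields Alu exons, was at 9.75, 9.76 and 9.75 in DMSO and at 9.23, 9.24 and 9.17 with MS023 (-0.54, SE 0.058, limma adjusted p = 8.5e-04). Both DEGs were separate between the groups. HNRNPK, a poly(C)-binding protein, fell by 0.34 (adjusted p = 0.0056). HNRNPL and HNRNPM, which bind CA repeats and GU-rich RNA, fell by 0.27 and 0.21 (adjusted p = 0.021 and 0.034). HNRNPL lost the call in 7 of 15 alternative fits, with adjusted p up to 0.062 when any sample but MS023 replicate 3 was left out. HNRNPM lost it in 8, with up to 0.098 when any of the 6 samples was. SYNCRIP (hnRNP Q) at -0.16 and HNRNPLL at -0.15 did not pass, though SYNCRIP did without MS023 replicate 3 (-0.23, adjusted p = 0.043).

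hnRNP U and SAFB proteins, scaffold attachment factors of nuclear RNA and chromatin, held no DEG with MS023. HNRNPUL2, HNRNPU and HNRNPUL1 fell by 0.38, 0.29 and 0.23 (limma, adjusted p = 0.019, 0.021 and 0.034). HNRNPUL2 lost the call without DMSO replicate 1 (adjusted p = 0.059). HNRNPU lost it in 6 of 15 alternative fits, 4 of them without MS023 replicates 1 or 2 or DMSO replicates 1 or 3 (0.053 to 0.071), and HNRNPUL1 in 8, 5 of them without any sample but MS023 replicate 3 (0.074 to 0.096). HNRNPUL2 was at 5.36, 5.19 and 5.20 in DMSO and at 4.93, 4.72 and 4.96 with MS023, without overlap. SAFB was at 0.03 and SAFB2 at -0.19, and neither passed. The annotation places SAFB and SAFB2 head to head on chromosome 19, where their gene bodies overlap. On either strand, 15.7% of the 31-base words of SAFB's protein-coding transcripts also occur in SAFB2.

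FET proteins join RNA binding to transcription. TAF15 was at 7.28, 7.31 and 7.26 in DMSO and at 6.86, 6.59 and 6.91 with MS023, without overlap and with the second MS023 replicate lowest (log2 fold change -0.50, SE 0.099, limma adjusted p = 0.0082). EWSR1 did not pass, at -0.07. Its ratio to TAF15 went from 1.41 ± 0.045 to 1.90 ± 0.22 (TPM, SD, n = 3 each).

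The cold-inducible proteins CIRBP and RBM3, small RGG-type proteins that rise in mild hypothermia, were the role with no member below 0. RBM3 was at 8.53, 8.39 and 8.47 in DMSO and at 8.92, 9.02 and 8.99 with MS023, so all treated samples were higher. It went from 352 ± 17.1 to 504 ± 17.7 TPM (SD, n = 3), a log2 fold change of 0.52 (SE 0.068, limma adjusted p = 0.0018), and passed in all 15 alternative fits. CIRBP was at 8.13, 8.12 and 8.17 in DMSO and at 8.25, 8.24 and 8.30 with MS023. These groups did not overlap either, but the log2 fold change of 0.12 had an adjusted p of 0.13 in limma, and of 0.023 under median-ratio scaling.

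Of the other RGG and RNA-binding genes 7 of 8 were under 0 and 5 had an adjusted p under 0.05. SERBP1, a ribosome-bound RGG protein, was at 9.40, 9.34 and 9.38 in DMSO and at 8.63, 8.64 and 8.69 with MS023. This was a fall from 661 ± 14.1 to 402 ± 9.48 TPM (SD, n = 3) without overlap, at a log2 fold change of -0.72 (SE 0.059, limma adjusted p = 3.4e-04). RBM15, which guides m6A methylation and is a PRMT1 substrate, was the lowest member, at 6.47 ± 0.71 TPM in DMSO and 4.51 ± 0.13 TPM (SD, n = 3) after treatment. It fell by 0.43 on the log2 scale (limma, adjusted p = 0.0084), a scale that makes changes of low genes smaller. ILF2, G3BP1 and ALYREF, which serve double-stranded RNA binding, stress granules and mRNA export, fell by 0.39, 0.34 and 0.32 (limma, adjusted p = 0.0028, 0.0077 and 0.0055). KHDRBS1 (Sam68) at -0.02, PABPN1 at -0.05 and G3BP2 at 0.21 did not pass. G3BP2 passed as higher under median-ratio scaling (0.31, adjusted p = 0.029) and quantile normalization (0.31, adjusted p = 0.036).

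SNRPB, SNRPD1 and SNRPD3 encode Sm proteins, whose RG tails are methylated before they are loaded on the spliceosomal snRNAs, and all 3 fell. SNRPB was at 9.31, 9.39 and 9.36 in DMSO and at 8.85, 8.81 and 8.81 with MS023, without overlap (log2 fold change -0.53, SE 0.059, limma adjusted p = 9.5e-04). SNRPD1 was at 6.48, 6.38 and 6.20 in DMSO and at 5.75, 5.99 and 5.90 with MS023 (-0.47, SE 0.103, adjusted p = 0.011). SNRPD3 fell by 0.32 (adjusted p = 0.014).

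U2AF1 and U2AF2 form the factor that reads the 3′ splice site. U2AF2 did not pass, at -0.06. U2AF1 had by far the widest spread of the 53 genes: it was listed at 78.5, 43.3 and 75.4 TPM in DMSO, at 47.9, 22.0 and 63.9 TPM with MS023, at 156, 106 and 47.8 TPM in isgCtrl and at 101, 100 and 178 TPM in PRMT1-KO. The table also lists U2AF1L5, a copy on chromosome 21 that GENCODE marks as an artifactual duplication of U2AF1 and that shares 48.7% of the 31-base words of U2AF1's protein-coding transcripts. U2AF1L5 held 71.4% to 85.3% of the summed TPM of both in the 4 groups.

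The sum of both entries was steady within groups: 387, 405 and 398 TPM in DMSO, 302, 309 and 304 TPM with MS023, 440, 433 and 463 TPM in isgCtrl and 444, 445 and 440 TPM in PRMT1-KO. All MS023 samples were lower than all DMSO samples, and isgCtrl and PRMT1-KO overlapped. On the sum MS023 gave a log2 fold change of -0.38 (SE 0.058, limma adjusted p = 0.0031), against -0.63 with an adjusted p of 0.27 for the entry of U2AF1 alone. In PRMT1-KO the sum gave -0.006 (adjusted p = 0.96) and the entry alone 0.39 (adjusted p = 0.69), or -0.08 without isgCtrl replicate 3.

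**Figure D4:**
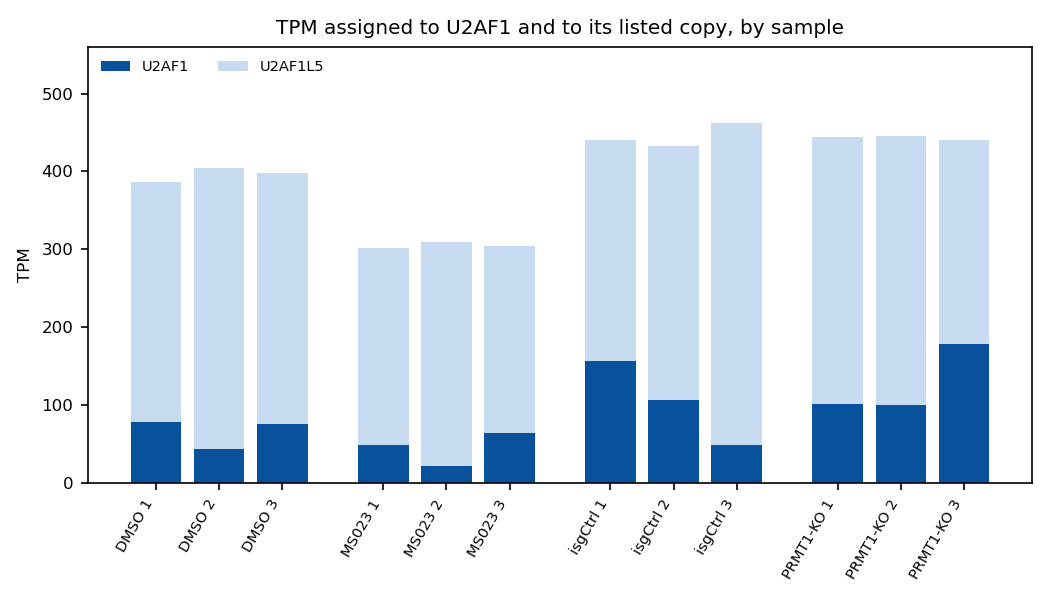
TPM (y axis, from 0) assigned to U2AF1 (dark) and U2AF1L5 (light) in each of the 12 samples, stacked. The dark part varies between replicates, from 22.0 to 178 TPM, while the full bars lie between 302 and 309 with MS023 and between 387 and 463 in the other groups.

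Summed over all 53 genes, the members held 1.56%, 1.52% and 1.54% of all TPM in DMSO and 1.17%, 1.15% and 1.20% with MS023. In isgCtrl they held 1.77%, 1.73% and 1.78%, and in PRMT1-KO 1.69%, 1.70% and 1.73%. Neither comparison had overlapping groups, but the nearest samples of isgCtrl and PRMT1-KO, at 1.7348% and 1.7310%, were almost equal. SR proteins went from 0.248% ± 0.0051 to 0.172% ± 0.0032 of all TPM with MS023 (SD, n = 3), and Sm core genes from 0.0958% ± 0.0016 to 0.0689% ± 0.00074. The cold-inducible pair went the other way, from 0.0633% ± 0.0018 to 0.0810% ± 0.0019.

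Proliferation genes moved in the same samples. All 14 genes of that list, such as CCNB1 and TOP2A, were DEGs with lower values in MS023, with a median log2 fold change of -1.11, and held 0.208% ± 0.0024 of all TPM in DMSO (SD, n = 3) and 0.102% ± 0.0023 after treatment. In PRMT1-KO none of them passed (limma, 0 of 14; 1 at an unadjusted p under 0.05), and their median was -0.01. Plasma cell markers moved the other way in the same samples: 7 of 9 rose with MS023 (limma, adjusted p under 0.05), 6 of them as DEGs, at a median log2 fold change of 0.75. Their share of all TPM went from 0.569% ± 0.013 in DMSO to 1.19% ± 0.018 after treatment (SD, n = 3), a gain larger than the share the members lost. Most of that share and of its gain came from JCHAIN alone, at 12.20 to 12.27 log2(TPM+1) in DMSO and at 13.34 to 13.39 with MS023. The part of either list in the members' values was not tested. Markers of other blood or stromal cells summed to at most 0.0014% of all TPM in any sample, and 3 of their 11 genes were high enough to be tested with MS023.

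**Figure D5:**
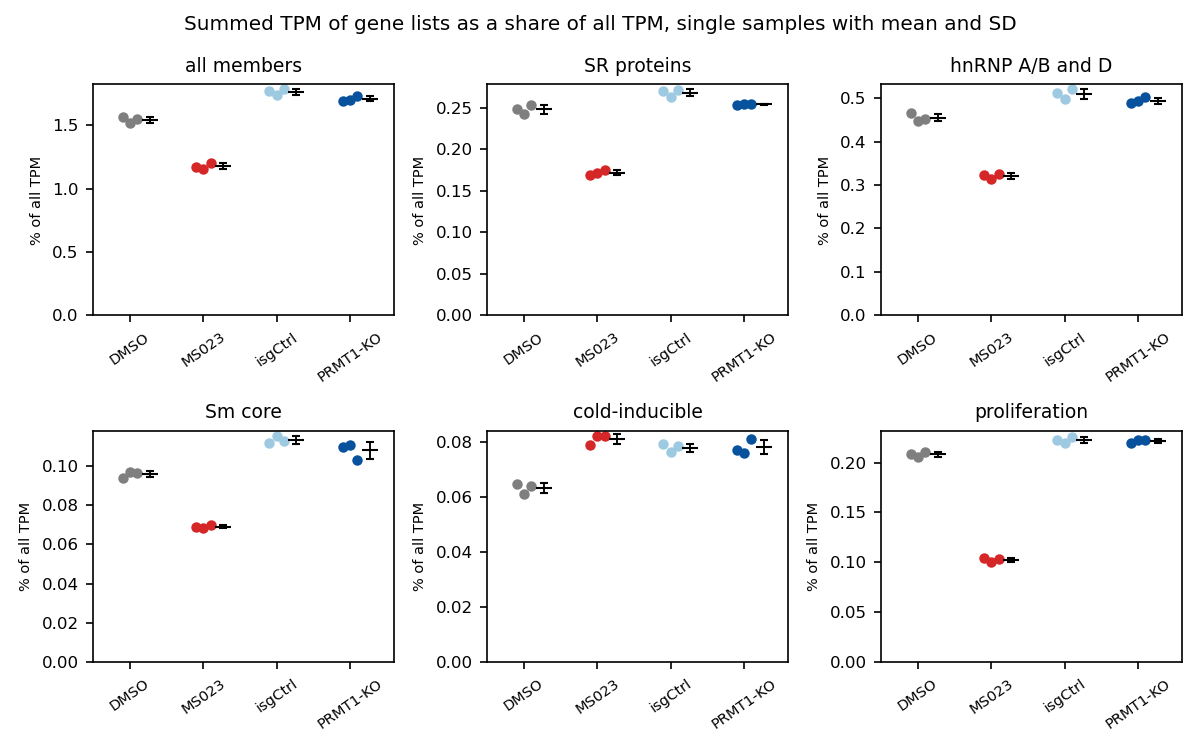
Share of all TPM (y axes, in percent, from 0) held by all 53 members, by 4 of their roles and by 14 proliferation genes, in single samples (points) with mean and SD (n = 3). MS023 samples lie below all others in each panel but that of the cold-inducible pair, where DMSO samples are lowest.

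The second comparison asked what loss of PRMT1 did to the same genes. No member was a DEG in PRMT1-KO, where 0.781% of all 12285 genes tested were, and no member had an adjusted p under 0.05 in limma, where 1.28% of all genes had. At an unadjusted p under 0.05 in limma, 8 members were lower (15.1%, where 12.4% of all genes were) and 1 was higher (where 6.26% were). Of the 53, 42 had log2 fold changes under 0, with a median of -0.063, beside -0.038 over all genes. All PRMT1-KO samples lay below all isgCtrl samples for 19 members (35.8%, where 17.6% of all genes did) and above them for 2, HNRNPH3 and SYNCRIP (where 9.11% did).

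The 8 members were SRSF1, U2AF2, SRSF6, SAFB2, HNRNPA3, HNRNPA0, SAFB and HNRNPF, at log2 fold changes of -0.22 to -0.13. SRSF1 was at 8.90, 8.75 and 8.85 in isgCtrl and at 8.61, 8.64 and 8.61 in PRMT1-KO (-0.22, SE 0.057, limma adjusted p = 0.14). U2AF2 was at 8.77, 8.77 and 8.78 in isgCtrl and at 8.53, 8.60 and 8.54 in PRMT1-KO (-0.22, SE 0.046, adjusted p = 0.10). Neither gene overlapped between the groups. The 1 higher member was HNRNPH3, at 7.66, 7.65 and 7.70 in isgCtrl and 7.92, 7.87 and 8.01 in PRMT1-KO (0.26, SE 0.056, adjusted p = 0.10). With a variance trend in eBayes 5 members passed an adjusted p of 0.05 in limma, at 0.0092 to 0.048. These were SRSF1, SRSF6, HNRNPA3 and U2AF2, all lower, and HNRNPH3, higher. The share of all genes that passed with the trend was not counted, so the 5 are not read as a result about the members.

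The 15 members that were DEGs with lower values in MS023 had log2 fold changes of -0.22 to -0.015 in PRMT1-KO, with a median of -0.063. All 15 were under 0, as were 7431 of all 12285 genes tested, and 3 of the 15 had an unadjusted p under 0.05 in limma, beside the 12.4% of all genes that were lower at that threshold. Across the 53 members the log2 fold changes of the 2 comparisons, which share no samples, correlated at r = 0.21 (Pearson) and rho = 0.22 (Spearman). Over the 52 genes other than U2AF1 these were 0.35 and 0.27. Genes measured in the same libraries are not independent replicates. Of the 53, 39 were under 0 in both comparisons, where 47 were with MS023 and 42 in PRMT1-KO. The 39 are close to what these counts alone would give, so they are not read as agreement.

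The difference between the effects was tested directly, as the MS023 effect minus the PRMT1-KO effect in a fit of all 12 samples. It was below 0 with an adjusted p under 0.05 for 28 members (52.8%, where 21.2% of all 13256 genes were) and above 0 for 3 (where 14.4% were). Its median was -0.29 over the members. The largest differences were those of SRSF10 (-0.79, SE 0.094, limma adjusted p = 1.5e-04), SNRPD1 (-0.74, SE 0.160, adjusted p = 0.0052), SRSF7 (-0.71), HNRNPA3 (-0.69), HNRNPA2B1 (-0.68) and SERBP1 (-0.65), leaving out U2AF1, whose -1.02 did not pass. SRSF7 was among the genes with the least change in PRMT1-KO, with 8.11, 8.06 and 8.08 in isgCtrl and 8.07, 8.06 and 8.09 in PRMT1-KO.

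SNRPD1 was at 6.22, 6.32 and 6.12 in isgCtrl and at 6.69, 6.49 and 6.29 in PRMT1-KO, overlapping groups with a log2 fold change of 0.27 (adjusted p = 0.29 in limma). The 3 members with a difference above 0 were RBM3 (0.46, SE 0.089, limma adjusted p = 0.0028), HNRNPH2 (0.27, SE 0.089, adjusted p = 0.041) and CIRBP (0.19, SE 0.064, adjusted p = 0.043). CIRBP was at 8.40, 8.47 and 8.47 in isgCtrl and at 8.38, 8.35 and 8.40 in PRMT1-KO. It was thus above its control in every MS023 sample and below it in every PRMT1-KO sample. CIRBP lost the call in 13 of 20 alternative fits, with adjusted p of 0.052 to 0.092 when any sample but isgCtrl replicate 1 was left out. HNRNPH2 lost it in 8, without DMSO replicates 2 or 3, MS023 replicates 2 or 3, isgCtrl replicates 1 or 3, or PRMT1-KO replicates 1 or 2 (adjusted p = 0.062 to 0.087).

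The control groups differed as well, and the comparisons above share samples with this one, so only its own values are given. From DMSO to isgCtrl the median of the members was 0.21, beside 0.066 over all genes. At the adjusted threshold in limma 27 members were higher (50.9%, where 21.5% of all 12661 genes were) and 2 were lower, HNRNPH2 and SRSF10 (where 13% were). DEGs were 3 members with higher values (where 7.23% of all genes were) and 0 with lower values (where 6.7% were). These 3 were SAFB2 (0.66, SE 0.070), SAFB (0.54, SE 0.054) and HNRNPUL1 (0.49, SE 0.048), with adjusted p of 0.0021, 0.0018 and 0.0018. The number of members past the adjusted threshold, 29 in all, was 15 without isgCtrl replicate 1 and 17 without isgCtrl replicate 3. SRSF10 lost its call when any of the 6 samples was left out (adjusted p = 0.053 to 0.12), and HNRNPH2 without isgCtrl replicate 1 (0.051).

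SAFB2 was at 5.33, 5.34 and 5.48 in DMSO and at 6.06, 5.97 and 6.12 in isgCtrl, SAFB at 6.03, 5.99 and 5.97 and at 6.54, 6.49 and 6.58, and HNRNPUL1 at 7.23, 7.20 and 7.22 and at 7.69, 7.69 and 7.73. None of the 3 overlapped between the controls. By the labels and the study's methods the control groups can differ in Cas9, the guide vector, puromycin selection, doxycycline and DMSO at once. These cannot be told apart.

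Other genes of the splicing machinery were counted from lists. Of 8 SR protein kinases, which phosphorylate the RS domains, 4 fell past the adjusted threshold in limma and 0 rose, with SRPK1 (-0.82), CLK3 (-0.74) and PRPF4B (-0.51) as DEGs. A list of 13 genes joined factors of Sm protein methylation and assembly with PRMTs outside type I, whatever their substrates. Of these 13, 9 fell and 1 rose, at a median of -0.36. The largest falls were those of PRMT9 (-0.95), which is listed as such a PRMT, GEMIN2 (-0.68) and DDX20 (-0.65). Of 30 other snRNP protein genes 14 fell and 2 rose, at a median of -0.23, with SF3A3 (-0.75), SNRPG (-0.70) and SNRNP27 (-0.60) leading. Of 45 other splicing regulators 22 fell and 2 rose, at a median of -0.21, led by BCLAF1 (-1.21), PNN (-0.98) and SRRM1 (-0.92).

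NMD factors moved little: 4 of 14 fell and 1 rose, at a median of -0.14, with UPF3B (-0.80) as a DEG. Of 5 type I PRMT genes tested, PRMT3 (-1.15) and PRMT6 (-0.56) were DEGs that fell, while PRMT1 itself was at 0.04 and did not pass. In PRMT1-KO, BCLAF1 (-0.57) and PRMT1 were the only genes of these 6 lists that passed in limma. The shares called are to be read beside the 30.4% of all genes that fell and the 18.4% that rose with MS023.

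Features of the members' genes were described from the annotation. For promoters the background was every promoter at hand, whether or not its gene was expressed in these cells. No background of expressed genes was counted, so these features cannot be called particular to the members. RefSeq promoters, 250 bases before each gene start, were at hand for 48 of 53 members, with a median GC content of 65.8%, beside 58% for all 35116 promoters. The GC box GGGCGG was in 66.7% of the members' promoters (42.6% of all), CCAAT in 45.8% (32% of all), the E-box CACGTG in 16.7% (6.34%), the ETS core CCGGAAG in 18.8% (8.52%), the NRF1 core GCGCATG in 8.33% (3.77%), the E2F core TTTCCCGC in 6.25% (1.39%) and TATAAA in 12.5% (10.7%). The cAMP response element TGACGTCA and the YY1 core AAGATGGCG were in none (1.65% and 0.652% of all). Of the 15 DEGs that fell 14 had a promoter, and 7 of these held a GC box and 4 a CCAAT box. Among all 48 members with a promoter, 32 held a GC box and 22 a CCAAT box. The shares of the E2F and NRF1 cores rest on 3 and 4 members.

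Annotated NMD transcripts numbered from 0 to 35 per member, with a median of 3 in the 15 DEGs that fell and 1 in the other members. Their number and the log2 fold change with MS023 were weakly related (rho = -0.23, r = -0.13, 53 genes). Gene length (rho 0.08) and the level in DMSO (rho -0.29) were weak as well. The 31-base words shared with other genes, matched on both strands, made up 71.7% for HNRNPA3, with 56.0% of all its words in NFE2L2. They made up 45.7% for PABPN1, 45.5% for HNRNPUL2, 39.4% for SRSF9, 39.2% for HNRNPL and 34.3% for SRSF1. Reads of these genes can be split between entries, to a degree that also depends on whether the libraries were stranded, which is not stated.

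The readthrough entry HNRNPUL2-BSCL2 held 40.0% to 41.4% of the sum with HNRNPUL2, and the 76 pseudogene entries of HNRNPA1 held 1.33% to 1.61% of theirs. With these copies summed, HNRNPUL2 was at -0.40 (limma, adjusted p = 0.010) and HNRNPA1 at -0.34 with MS023, close to the values of the genes alone. HNRNPH2 shared 19.4% of its 31-base words with other genes, 14.7% with the readthrough RPL36A-HNRNPH2. That readthrough was not among the copies summed, so the values and ratios of HNRNPH2 are those of its own entry.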

How the data were processed

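Bulk RNA-seq of 12 JJN3 samples, 3 in each of 4 groups, was used. By the study's methods the authors trimmed paired-end reads with Trimmomatic, aligned them with STAR to hg38, and quantified GENCODE V35 transcripts with Salmon. Gene values were deposited by the authors as log2(TPM+1), with no counts, so depth per sample is unknown beyond the minimum that the study's methods state. Tool versions are not given in the sources used here. Groups were taken from the treatment and genotype labels.

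Each comparison was fitted on its own 6 samples with limma 3.58.1 in R 4.3.3 (eBayes without trend) over genes with a group mean above 1, and p-values were adjusted by Benjamini-Hochberg over all genes tested. The difference of effects was a contrast in a fit of all 12 samples. On simulated data for MS023 against DMSO (12407 genes), 52% of planted log2 changes of 0.6 and 84% of those of 1 were recovered. For PRMT1-KO against isgCtrl (12431 genes) 56% and 85% were. The planted genes were drawn from all genes above a low level, and far fewer were changed than with MS023. These shares therefore check the fit and do not give the share recovered among the members.

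All 53 members could be named, those that were DEGs and the largest change of each role with every sample's value; other lists gave at most 3 called genes each, besides markers. The members and lists were chosen with earlier results of these data known. Alternatives were median-ratio and quantile scaling, a pseudocount of 0.1, other filters, a variance trend, a replicate block, a fit of all 12 samples, no fold change threshold, summed copies and leaving out each sample. Shared 31-base words and transcripts were counted in GENCODE v44, a later release than that of the values. Protein sequences were not analysed here.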

Additional observations from a re-analysis of the deposited data

Results flagged for a closer look

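CIRBP was noted because its groups moved in opposite directions without overlap: it was 0.12 above DMSO with MS023 and 0.07 below isgCtrl in PRMT1-KO (log2, in 3 of 3 samples each). The difference between the effects was 0.19 (SE 0.064; limma, adjusted p = 0.043), and neither effect passed alone (adjusted p = 0.13 and 0.49).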

How the results depend on the processing

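With MS023 the 15 DEGs that were lower became 8 under median-ratio scaling, and without the fold change threshold 36 were lower and 2 higher, by construction. Genes near 0 changed sign: HNRNPAB, KHDRBS1 and PABPN1 were at 0.068, 0.079 and 0.051 under median-ratio scaling and at 0.0031, 0.041 and 0.022 under quantile normalization, and EWSR1 and U2AF2 at 0.030 and 0.046 under the former. Leaving out 1 sample gave 14 to 18 lower DEGs and 1 higher, and -0.013 to 0.047 for SAFB. In PRMT1-KO no DEG was found under any alternative run, but 5 members passed the adjusted p alone with a variance trend. The cause was not tested, and the share of all genes that passed with the trend was not counted. U2AF1 there was at -0.0062 with its copy summed and between -0.080 and 0.76 with 1 sample left out. Between the controls, dropping the fold change threshold gave 27 higher and 2 lower, and leaving out 1 sample gave 15 to 22 calls, against 29.

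The replicate numbers did not pair the samples: for MS023 and DMSO, deviations of same-numbered samples correlated at 0.021, 0.073 and 0.10, and for the knockout at -0.14, 0.070 and -0.070. With the replicate number as a block, 16 members were lower DEGs with MS023, 0 were DEGs in PRMT1-KO and 17 passed the adjusted p between the controls.

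TPM are shares of a total, so a change of all mRNA per cell cannot be seen.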
